A study of Mus musculus with 12 samples.

Results

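The potassium channel genes of mouse neuroendocrine thyroid carcinomas were taken as every gene whose symbol begins with Kcn, which gave 95 of the 23284 genes in the count tables. Messenger RNA had been sequenced from 12 primary tumours of an engineered mouse model, to ask which genes depend on Crebbp, which encodes a coactivator that acetylates histones. The genotype label of 5 tumours was Rb1/Trp53/Crebbp (RPC-labelled here), and that of 7 tumours was Rb1/Trp53 (RP-labelled). Rb1 and Trp53, the retinoblastoma and p53 tumour suppressor genes, are therefore named in the genotype of both groups. The sources used here do not give the Cre driver, the alleles, the age and sex of the mice or whether each tumour came from a separate mouse; p-values therefore speak only of the spread among the tumours sequenced.

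Potassium channels are membrane pores that let potassium leave or enter a cell and so set its resting potential and end its action potentials. The Kcna to Kcnd, Kcnh and Kcnq genes encode pore subunits opened by voltage, Kcnma and Kcnn genes encode calcium-activated pores, Kcnj genes encode inward rectifiers, and Kcnk genes encode tandem-pore channels that carry background current. Kcne, Kcnip, Kcnab and Kcnmb genes encode auxiliary subunits that modify these pores. The C cells of the thyroid, which secrete calcitonin, are electrically excitable, whereas the follicular cells beside them make thyroid hormone and use a channel of KCNQ1 and KCNE2 in iodide uptake.

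Gene counts per tumour ranged from 9.14 M to 20.5 M in RPC-labelled tumours and from 9.11 M to 57.3 M in RP-labelled tumours. Levels are given as CPM, the counts per 1 M counted reads with TMM-adjusted library sizes, in which 1 count was worth between 0.0167 and 0.104 CPM, and 3 counts, taken as the floor, to between 0.0502 and 0.312 CPM. These limits cover counting error only. Crebbp itself averaged 53.9 ± 4.19 CPM over RPC-labelled tumours (SD, n = 5) and 54.6 ± 20.04 CPM over RP-labelled tumours (SD, n = 7), and did not separate the groups (edgeR adjusted p = 0.957). Rb1 was not called either (97.0 ± 22.2 CPM in RPC-labelled and 75.0 ± 15.4 CPM in RP-labelled tumours; edgeR adjusted p = 0.137), whereas Trp53 averaged 16.1 ± 4.15 CPM in RPC-labelled and 28.9 ± 4.70 CPM in RP-labelled tumours, without overlap (edgeR adjusted p = 0.00918). A count over the whole gene cannot show the loss of part of it. Calca, the calcitonin gene of C cells, was abundant in every tumour, at 19994 to 119488 CPM in RPC-labelled and 80584 to 215747 CPM in RP-labelled tumours. Thyroglobulin (Tg), the marker of follicular cells, was at 805, 26.2, 1682, 5488 and 334 CPM in RPC-labelled tumours 1 to 5 and had a lowest, median and highest value of 1482, 7955 and 8998 CPM in RP-labelled tumours. The summed markers of skeletal muscle stood apart in RPC-labelled tumour 5, at 3724 CPM, and RP-labelled tumour 6, at 3621 CPM.

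Potassium channel expression differed between the genotypes in both directions. Of the 63 Kcn genes with enough counts to test, 7 were higher and 10 were lower in RPC-labelled tumours at an adjusted p under 0.05 (edgeR quasi-likelihood test, Benjamini-Hochberg adjustment over all 14989 genes tested), and 46 were not called. The called genes made up 27.0% of those tested, against 18.3% of all genes; the share called higher was 11.1%, against 9.64% of all genes, and the share called lower was 15.9%, against 8.61%. The difference was at least 2-fold for 14 of the 17. The median log2 fold change was -0.17 over the tested Kcn genes and -0.016 over all genes. The higher genes described here were the voltage-gated pores Kcna4, Kcnc1 and Kcnd2, the calcium-activated pore Kcnn3, and the auxiliary subunits Kcnip4 and Kcnmb4. The lower genes were Kcnd3, Kcnh3, Kcnip3, Kcne2, Kcne4, the inward rectifiers Kcnj11 and Kcnj15, and the tandem-pore channels Kcnk5, Kcnk12 and Kcnk13.

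**Figure D1:**
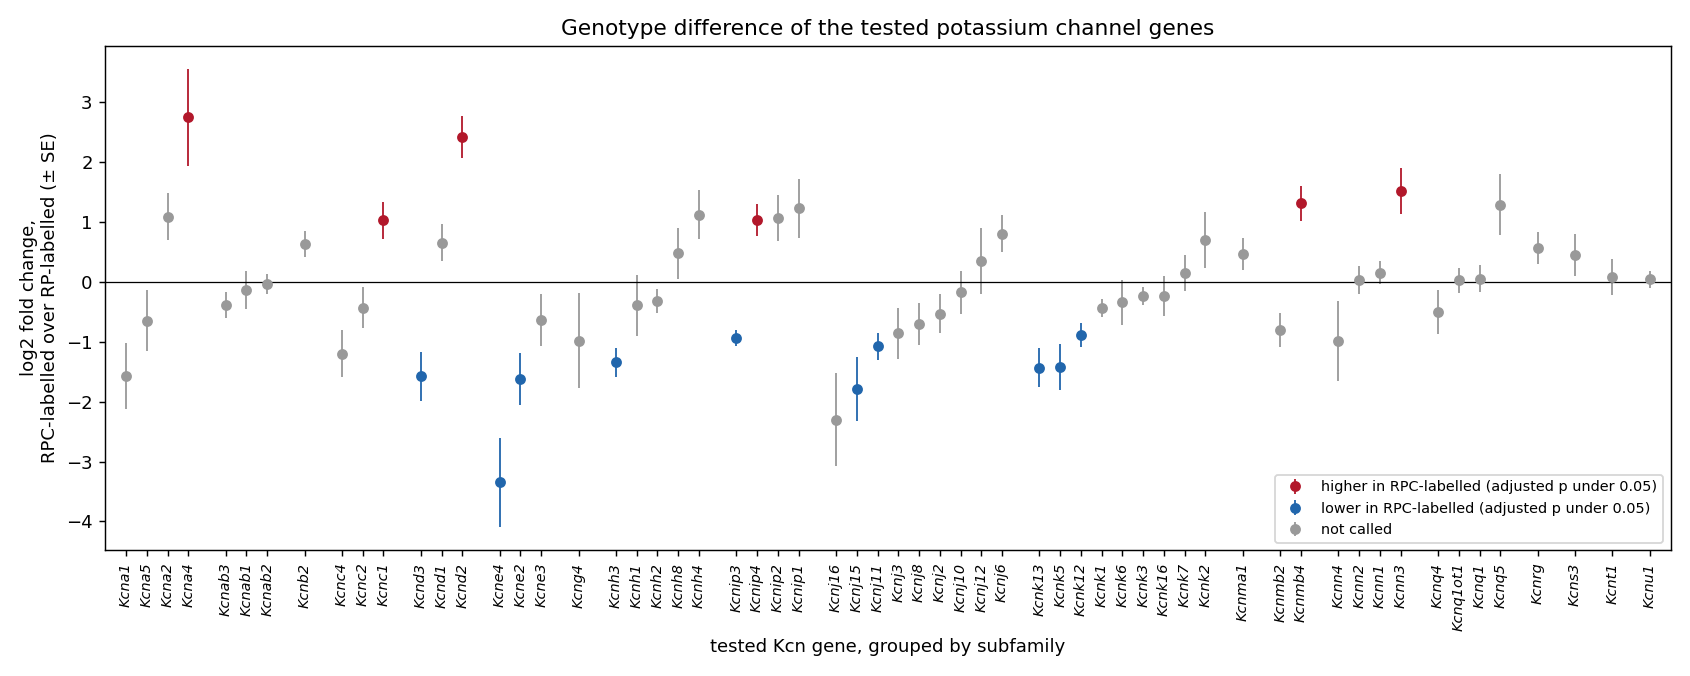
Log2 fold change of the tested Kcn genes reported here, RPC-labelled over RP-labelled, with its standard error, grouped by subfamily along the x axis; red points were called higher, blue points lower and grey points not called. The higher and lower genes are spread over many subfamilies, and all 3 called Kcnk genes and both called Kcnj genes lie below 0.

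In 9 of the 63 genes, 14.3%, the CPM ranges of the groups did not overlap, against 6.26% of all genes tested. RPC-labelled tumours were all above RP-labelled ones for Kcnd2, Kcnip4 and Kcnmb4, and all below for Kcne2, Kcne4, Kcnh3, Kcnip3, Kcnj11 and Kcnk12. Scaling by total counts in place of TMM moved the median log2 fold change of all genes to 0.18 and the Kcn calls to 12 higher and 11 lower, with 23% of all genes called. Of the 16 called genes described here, 8 held their call in all 12 fits that left out 1 tumour. Without RPC-labelled tumour 5, 3 Kcn genes were called higher and 6 lower, with 12% of all genes called. Without RPC-labelled tumour 2, 6 Kcn genes were called lower, with 7.08% of all genes called. Kcnd2, Kcnip4, Kcnmb4 and Kcnn3 were among the Kcn genes called higher in that fit. Without RPC-labelled tumour 5 and RP-labelled tumour 6, where skeletal muscle markers were high, 1 gene was called higher and 4 lower, with 5.02% of all genes called. Without RPC-labelled tumour 4 and RP-labelled tumour 3, the highest and the lowest in Tg of their groups, 10 were called higher and 15 lower, with 27.6% of all genes called.

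The summed level of 12 follicular cell markers was 55.8 to 5760 CPM in RPC-labelled tumours, overlapping the 1644 to 9306 CPM of RP-labelled tumours, with 2 of 11 tested markers lower. All 10 adipocyte markers were lower in RPC-labelled tumours, with a sum of 56.4 to 134 CPM in RPC-labelled and 69.6 to 2035 CPM in RP-labelled tumours. With the mean follicular marker score added to the model as a covariate, edgeR called 0 Kcn genes higher and 0 lower, and 3 genes in all (0.0200% of those tested). At an unadjusted p under 0.05, 6 Kcn genes were higher and 10 lower in that fit, against 4.23% higher and 6.24% lower of all genes tested. With the adipocyte score it called 0 Kcn genes higher and 1, Kcnip3, lower, and 111 genes in all (0.741%). At an unadjusted p under 0.05 there were 8 higher and 15 lower Kcn genes, against 9.55% higher and 10.9% lower of all genes. All 16 called genes described here kept their direction in both fits, while the median standard error of their log2 fold changes was 0.49 with the follicular and 0.43 with the adipocyte score, against 0.34 without a covariate. Their log2 fold changes were at least as large as without a covariate for 3 of 16 genes with the follicular score, namely Kcne2 at -1.72, Kcne4 at -4.32 and Kcnk13 at -2.19, and for 6 of 16 with the adipocyte score, and were smaller for the others. In bulk tumours, fewer cells of a type and less RNA per cell cannot be told apart.

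The highest levels per length belonged to background channels. Kcnk3, a tandem-pore channel closed by external acid, averaged 119.7 CPM per kb of exon over the 12 tumours, followed by Kcnk1 at 76.9, Kcnh3 at 46.3, Kcnip3 at 39.4 and Kcnh2 at 20.4 CPM per kb, and Kcnj11 had 17.1 CPM per kb. Kcnk3 alone took between 20.5% and 30.3% of all Kcn counts in each tumour. Its level was 379, 321, 525, 501 and 339.8 CPM in RPC-labelled tumours 1 to 5, with a lowest, median and highest value of 413, 476 and 574 CPM in RP-labelled tumours. These ranges overlapped and the gene was not called (log2 fold change -0.24 ± 0.15 SE; edgeR adjusted p = 0.273). Kcnk3 is also a channel gene of brown fat, and the part of fat cells in its level was not tested.

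**Figure D2:**
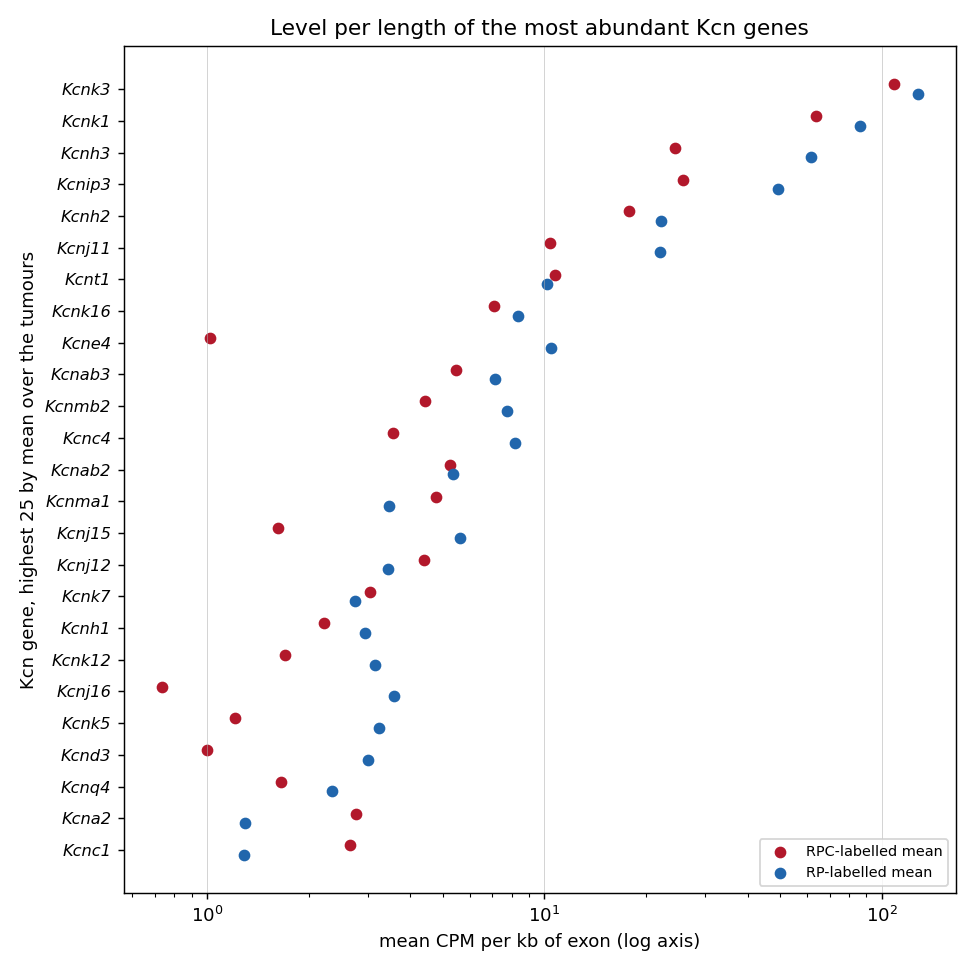
Mean CPM per kb of exon, on a log axis, of the 25 Kcn genes with the highest mean over the tumours among those reported here; red points are RPC-labelled means and blue points RP-labelled means. Kcnk3 and Kcnk1 lead in both groups, and Kcnh3, Kcnip3 and Kcnj11 have visibly lower means in RPC-labelled tumours.

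The pore subunits of the transient A-type current, which inactivates quickly and delays firing, moved in opposite directions. Kcnd2 was at 13.1, 15.4, 6.32, 12.1 and 13.2 CPM in RPC-labelled tumours 1 to 5, while its lowest, median and highest values in RP-labelled tumours were 0.650, 1.97 and 4.03 CPM. Every RPC-labelled tumour was above every RP-labelled one, and the 5.35-fold difference was 2.42 ± 0.35 SE on the log2 scale (edgeR adjusted p = 0.00250). Kcnd3 was at 10.7, 2.57, 10.4, 9.68 and 4.63 CPM in RPC-labelled tumours 1 to 5, against 10.6, 23.9 and 43.0 CPM as the lowest, median and highest of RP-labelled tumours. RPC-labelled tumour 1 just reached the lowest RP-labelled tumour, number 3. The log2 fold change of Kcnd3 was -1.58 ± 0.41 SE (edgeR adjusted p = 0.0232), and it missed the threshold without RPC-labelled tumour 2 or 5, at adjusted p values of 0.0507 and 0.0503. Its exons share 165 bases with an antisense gene. The ratio of Kcnd2 to Kcnd3 CPM was 0.606 to 6.0 in RPC-labelled tumours, with a median of 1.25, and 0.0393 to 0.293 in RP-labelled tumours, with a median of 0.0716. Kcnd1, the other member, overlapped between the groups and was not called (log2 fold change 0.66 ± 0.31 SE; edgeR adjusted p = 0.146). With the follicular score in the model, the log2 fold change was 1.89 for Kcnd2 and -0.15 for Kcnd3.

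The 250 bases before the annotated start of Kcnd2 and Kcnd3, which moved in opposite directions, were compared in the RefSeq annotation of GRCm38.p6 (both genes on the plus strand, 5′ to 3′), since CREBBP is a coactivator for factors that bind the cyclic AMP response element, TGACGTCA. Neither window held its core letters, TGACG or, on the other strand, CGTCA.
Kcnd2 chr6:21215096-21215345: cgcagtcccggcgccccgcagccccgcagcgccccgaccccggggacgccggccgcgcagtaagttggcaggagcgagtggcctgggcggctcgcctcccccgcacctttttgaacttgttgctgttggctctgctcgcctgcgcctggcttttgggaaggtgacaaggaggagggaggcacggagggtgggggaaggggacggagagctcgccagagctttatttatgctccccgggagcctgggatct
Kcnd3 chr3:105451640-105451889: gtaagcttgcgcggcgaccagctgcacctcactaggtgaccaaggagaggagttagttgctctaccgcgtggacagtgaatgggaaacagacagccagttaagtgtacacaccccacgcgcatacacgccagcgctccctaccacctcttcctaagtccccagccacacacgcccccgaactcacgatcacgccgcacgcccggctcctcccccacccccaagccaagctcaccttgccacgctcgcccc
The window of Kcnd2 had 68.8% G and C, that of Kcnd3 62.8%, and the median over all windows was 52.4%. The core letters, searched on both strands, were found in 16 of 95 windows of 70 Kcn genes (16.8%) and in 17.8% of all 32851 windows. The full TGACGTCA was in 0 of the 95 and in 1.55% of all windows. Of the 14 called genes with a window, 3 held the core letters, namely Kcnc1, Kcne2 and Kcne4. A match describes letters and is not a binding site.

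The auxiliary subunits of these channels, the calcium-binding Kcnip proteins, also moved in opposite directions. Kcnip3, whose product also acts as a transcriptional repressor known as DREAM, was at 92.0, 77.1, 87.4, 93.4 and 65.2 CPM in RPC-labelled tumours 1 to 5, with 116, 164 and 186 CPM as the lowest, median and highest of RP-labelled tumours. Kcnip3 had the smallest adjusted p of any Kcn gene, and every RPC-labelled tumour was below every RP-labelled one (log2 fold change -0.94 ± 0.13 SE; edgeR adjusted p = 0.00196). Kcnip4 was at 1.58, 1.47, 1.23, 1.86 and 2.82 CPM in RPC-labelled tumours 1 to 5, against 0.551, 0.833 and 1.10 CPM as the lowest, median and highest of RP-labelled tumours. Its ranges did not overlap either (log2 fold change 1.04 ± 0.27 SE; edgeR adjusted p = 0.0227), but without RPC-labelled tumour 5 the change was 0.80 with an adjusted p of 0.0617. The Kcnip4 result rests on 127 counts in RPC-labelled and 133 counts in RP-labelled tumours. An antisense gene shares 99 bases with the exons of Kcnip4, and its reads cannot be told apart. Kcnip1 and Kcnip2 were not called, with log2 fold changes of 1.23 ± 0.50 SE and 1.07 ± 0.38 SE. Per length, Kcnip3 led its family at a mean of 39.4 CPM per kb, while Kcnip4 had 0.387 CPM per kb. Kcna4, a Kv1 pore that also carries A-type current, was at 1.76, 2.38, 1.42, 0.533 and 3.77 CPM in RPC-labelled tumours 1 to 5, against 0, 0.0579 and 1.10 CPM as the lowest, median and highest of RP-labelled tumours. RP-labelled tumour 5 alone reached into the RPC-labelled range. The log2 fold change was 2.75 ± 0.81 SE (edgeR adjusted p = 0.0358), resting on 142 counts in RPC-labelled and 72 counts in RP-labelled tumours. RP-labelled tumour 5 held 66 of those 72 counts. The call of Kcna4 was lost without RPC-labelled tumour 1, 2, 3 or 5 or RP-labelled tumour 2, 4, 6 or 7, with adjusted p values of 0.0555 to 0.0840 and log2 fold changes of 2.37 to 2.87, and it was not tested without RP-labelled tumour 5.

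**Figure D3:**
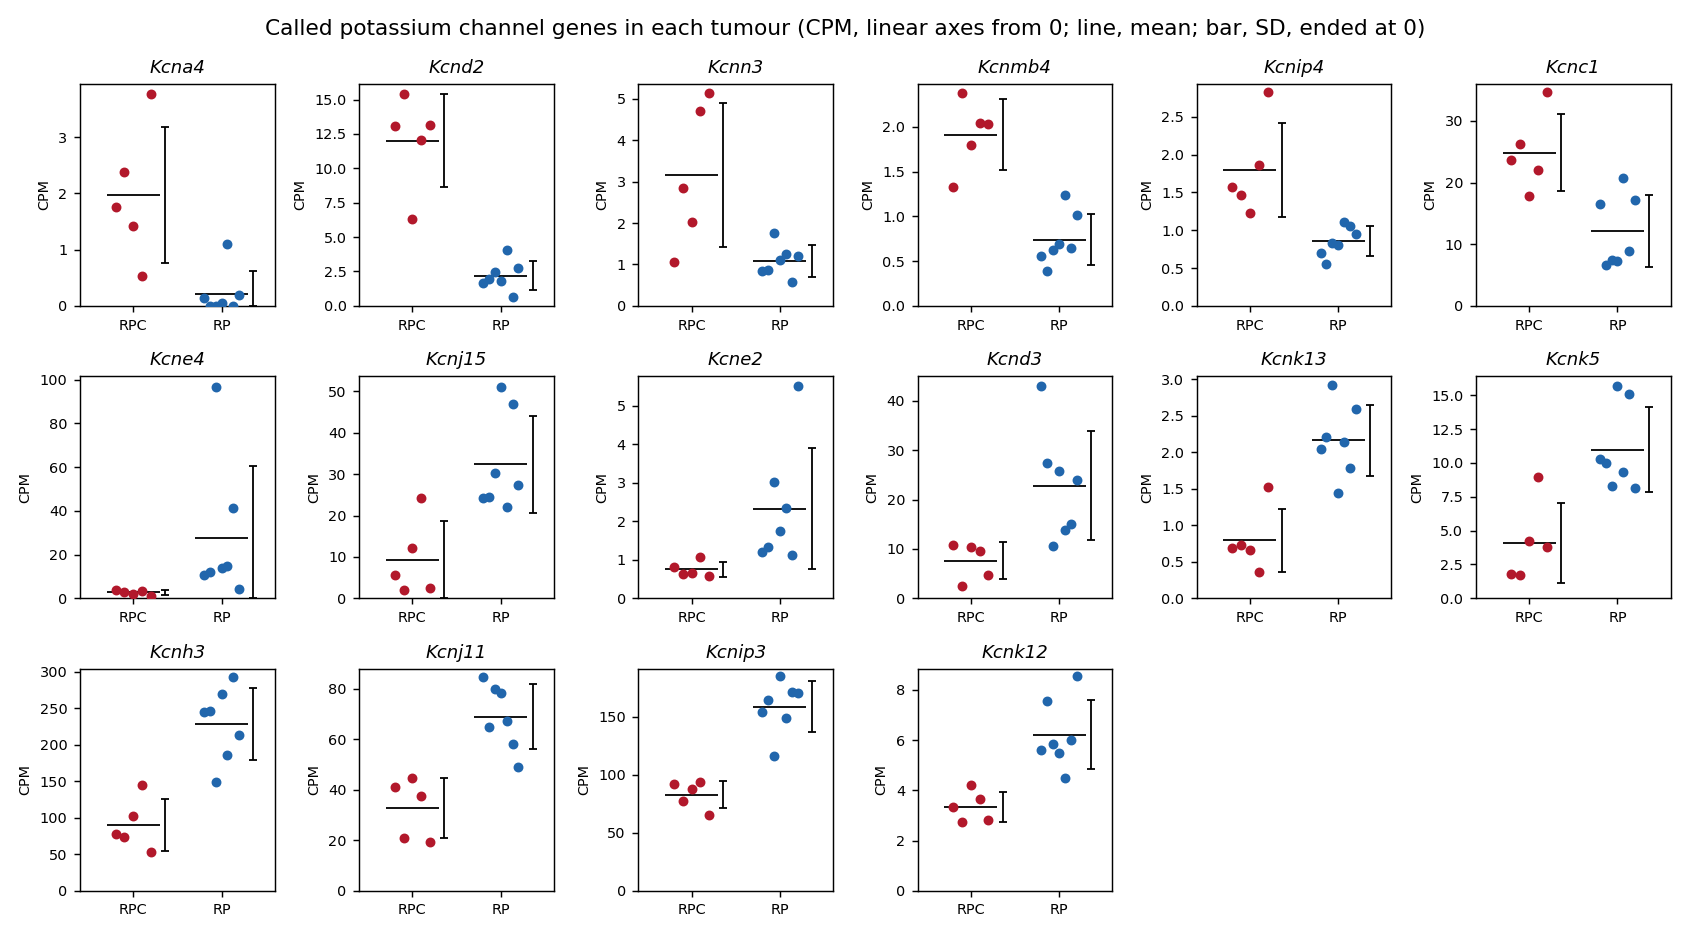
CPM of the 16 called Kcn genes described here in each tumour, RPC-labelled in red on the left and RP-labelled in blue on the right of each panel, on linear axes from 0, with the mean as a line and the SD as a bar ended at 0. Kcnd2 separates the groups with RPC-labelled values of 6.32 to 15.4 CPM above RP-labelled values of 0.650 to 4.03 CPM, and Kcne4 shows 1 RP-labelled tumour at 96.8 CPM.

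Among the other voltage-gated pores described here, Kcnc1 was higher and Kcnh3 was lower. Kcnq1, the pore of the follicular cell channel, did not separate the groups, at 3.11 to 6.68 CPM in RPC-labelled and 3.15 to 5.60 CPM in RP-labelled tumours (edgeR adjusted p = 0.891). Kcnq1ot1, a noncoding RNA read from the strand opposite Kcnq1, was the most counted Kcnq gene, at 113 to 140.4 CPM in RPC-labelled and 93.3 to 209 CPM in RP-labelled tumours (edgeR adjusted p = 0.934). It encodes no channel.

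Kcnc1, a fast-closing pore of rapidly firing neurons, was at 23.6, 26.2, 17.8, 22.0 and 34.6 CPM in RPC-labelled tumours 1 to 5, against 6.61, 8.85 and 20.7 CPM as the lowest, median and highest of RP-labelled tumours. Only RPC-labelled tumour 3 fell inside the RP-labelled range, and the log2 fold change was 1.03 ± 0.31 SE (edgeR adjusted p = 0.0363). The call was lost without RPC-labelled tumour 1, 2 or 5 or RP-labelled tumour 2, 4 or 6, with adjusted p values of 0.0634 to 0.0881 and log2 fold changes of 0.87 to 1.05. Kcnc4, of the same subfamily, stood at 9.07 to 14.8 CPM in RPC-labelled and 6.34 to 57.2 CPM in RP-labelled tumours without a call (edgeR adjusted p = 0.0528). The window of Kcnc1 was one of those with the core letters, shown in capitals 236 bases before the start.
Kcnc1 chr7:46396218-46396467: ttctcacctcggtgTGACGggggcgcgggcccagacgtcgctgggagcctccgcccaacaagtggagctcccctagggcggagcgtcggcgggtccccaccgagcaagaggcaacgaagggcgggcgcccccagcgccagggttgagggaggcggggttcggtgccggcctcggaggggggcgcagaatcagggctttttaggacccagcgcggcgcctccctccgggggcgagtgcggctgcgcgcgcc
Kcnc1 lies on the plus strand of GRCm38.p6, and its window had 74.4% G and C.

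Kcnh3, an ether-a-go-go family channel known mainly from forebrain neurons, was the third most abundant Kcn gene per length. It was at 77.8, 74.4, 102, 145 and 52.6 CPM in RPC-labelled tumours 1 to 5, against 149, 245 and 292 CPM as the lowest, median and highest of RP-labelled tumours. Every RPC-labelled tumour was below every RP-labelled one, RPC-labelled tumour 4 and RP-labelled tumour 3 lying close together (log2 fold change -1.34 ± 0.24 SE; edgeR adjusted p = 0.00655). Kcnh2, the hERG channel, was at 64.4 to 97.7 CPM in RPC-labelled and 78.4 to 163 CPM in RP-labelled tumours and was not called (edgeR adjusted p = 0.284). Kcna2, the most abundant Kv1 gene, was at 31.3, 29.9, 17.8, 21.2 and 63.7 CPM in RPC-labelled tumours 1 to 5, against 9.75, 12.4 and 37.9 CPM in RP-labelled tumours. It was not called (log2 fold change 1.09 ± 0.39 SE; edgeR adjusted p = 0.0657), but was called without RP-labelled tumour 3, at a log2 fold change of 1.48 and an adjusted p of 0.00722, and the change was 0.69 without RPC-labelled tumour 5. The delayed rectifier Kcnb2 was at 5.99 to 7.69 CPM in RPC-labelled and 3.52 to 7.73 CPM in RP-labelled tumours and was not called (edgeR adjusted p = 0.0571). None of the 3 Kcnab genes, which encode cytoplasmic subunits of Kv1 channels, was called.

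Of the 7 tested genes of the calcium-activated channels (Kcnma, Kcnmb and Kcnn), 2 were called, against 18.3% of all genes tested. So few genes do not set these subfamilies apart. Kcnn3, a small-conductance channel that follows the action potential, was at 1.07, 2.84, 2.03, 4.71 and 5.14 CPM in RPC-labelled tumours 1 to 5, against 0.569, 1.10 and 1.77 CPM in RP-labelled tumours as the lowest, median and highest. RPC-labelled tumour 1 lay inside the RP-labelled range (log2 fold change 1.53 ± 0.38 SE; edgeR adjusted p = 0.0208), and without RPC-labelled tumour 5 the change was 1.26 and the adjusted p 0.0542. Kcnn1, the most counted Kcnn gene, was at 4.6 to 8.25 CPM in RPC-labelled and 3.85 to 7.07 CPM in RP-labelled tumours and was not called (edgeR adjusted p = 0.598).

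Kcnmb4, the neuronal beta subunit of the BK channel, was at 1.32, 2.38, 1.79, 2.04 and 2.03 CPM in RPC-labelled tumours 1 to 5, against 0.393, 0.650 and 1.24 CPM as the lowest, median and highest of RP-labelled tumours. The ranges did not overlap (log2 fold change 1.32 ± 0.29 SE; edgeR adjusted p = 0.0140). Annotated antisense genes share 355 and 674 bases with the exons of Kcnmb4, which span 1.37 kb in all, and their reads cannot be told apart from its own. Kcnmb2, the beta subunit that inactivates the BK channel, was at 7.53 to 21.3 CPM in RPC-labelled and 12.1 to 40.4 CPM in RP-labelled tumours and was not called (log2 fold change -0.81 ± 0.29 SE; edgeR adjusted p = 0.0667), though it was without RPC-labelled tumour 4, at -1.01 and an adjusted p of 0.0305, or RP-labelled tumour 3, at -0.92 and 0.0254. The pore itself, Kcnma1, was at 44.2 to 87.5 CPM in RPC-labelled and 15.7 to 58.8 CPM in RP-labelled tumours without a call (edgeR adjusted p = 0.228). The ratio of Kcnmb4 to Kcnmb2 CPM was 0.0950 to 0.269 in RPC-labelled and 0.00973 to 0.0517 in RP-labelled tumours.

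Of 9 tested inward rectifiers, 2 were lower and none was higher, against 8.61% lower and 9.64% higher of all genes tested. So few genes do not set the subfamily apart. Kcnj11, the pore of the ATP-sensitive potassium channel that couples metabolism to hormone release, was at 41.0, 20.8, 44.7, 37.7 and 19.4 CPM in RPC-labelled tumours 1 to 5, against 49.0, 67.3 and 84.6 CPM as the lowest, median and highest of RP-labelled tumours. The ranges did not overlap (log2 fold change -1.07 ± 0.23 SE; edgeR adjusted p = 0.0112). Abcc8, which encodes its sulphonylurea receptor SUR1 and neighbours Kcnj11 on chromosome 7, was at 202, 73.9, 196, 215 and 69.2 CPM in RPC-labelled tumours 1 to 5, against 170.4, 325 and 474 CPM in RP-labelled tumours. RPC-labelled tumours 1, 3 and 4 lay inside the RP-labelled range and tumours 2 and 5 below it (log2 fold change -1.13 ± 0.33 SE; edgeR adjusted p = 0.0330). Its call was lost without RPC-labelled tumour 1, 2 or 5 or RP-labelled tumour 2, 4 or 6, at adjusted p values of 0.0503 to 0.0775, and its log2 fold change was 0.011 with the follicular score in the model. RPC-labelled tumours 2 and 5 were also the lowest in Calca, at 24888 and 19994 CPM, and the part of C cell content in these results was not tested. The ratio of Kcnj11 to Abcc8 CPM overlapped, at 0.175 to 0.282 in RPC-labelled and 0.157 to 0.469 in RP-labelled tumours. The vascular counterparts were Kcnj8, not called (log2 fold change -0.70 ± 0.35 SE; edgeR adjusted p = 0.175), and its receptor Abcc9, which was lower (log2 fold change -0.85 ± 0.24 SE; edgeR adjusted p = 0.0313). Abcc9 was at 7.37, 6.05, 8.02, 8.61 and 15.9 CPM in RPC-labelled tumours 1 to 5, against 11.5, 16.0 and 24.2 CPM in RP-labelled tumours. RPC-labelled tumour 5 alone lay inside the RP-labelled range. The call was lost without RPC-labelled tumour 1, 2 or 3 or RP-labelled tumour 2, 4 or 6, at adjusted p values of 0.0554 to 0.0776, and with scaling by total counts, at 0.0802. Smooth muscle and pericyte markers, 3 of 8 of which were lower, summed to 78.1 to 498 CPM in RPC-labelled and 109.7 to 299 CPM in RP-labelled tumours. Without Des, which skeletal muscle also expresses, the sums were 62.6 to 115 CPM in RPC-labelled and 97.3 to 196 CPM in RP-labelled tumours; their part in the Abcc9 result was not tested.

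**Figure D4:**
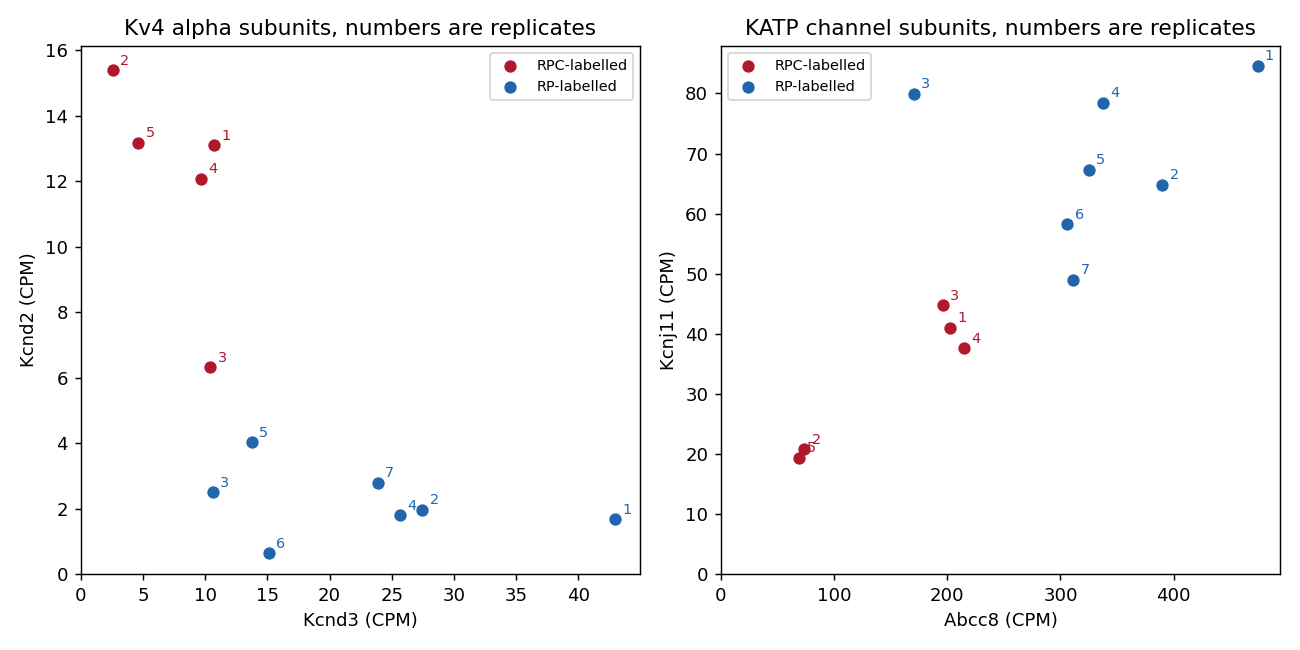
CPM of Kcnd2 against Kcnd3 (left) and of Kcnj11 against Abcc8 (right) in each tumour, RPC-labelled in red and RP-labelled in blue, with replicate numbers. RPC-labelled tumours sit at high Kcnd2 and low Kcnd3, and RPC-labelled tumours 2 and 5 are lowest for both Kcnj11 and Abcc8.

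Kcnj15, an inward rectifier of epithelia, was at 5.55, 2.11, 12.3, 24.3 and 2.61 CPM in RPC-labelled tumours 1 to 5, against 22.0, 27.5 and 51.1 CPM as the lowest, median and highest of RP-labelled tumours. RPC-labelled tumour 4 alone reached the RP-labelled range, and it also had the highest Tg of its group. The log2 fold change was -1.79 ± 0.54 SE (edgeR adjusted p = 0.0374), and -2.49 without RPC-labelled tumour 4. The call was lost without RPC-labelled tumour 1, 2, 3 or 5 or RP-labelled tumour 2, 4, 6 or 7, at adjusted p values of 0.0511 to 0.0884, and, narrowly, when no filter on low counts was used, at 0.0513. An antisense gene shares 333 bases with its exons, and its reads cannot be told apart. Kcnj16, which forms channels with the product of Kcnj10 in kidney, was at 1.51, 0, 2.92, 9.41 and 0.579 CPM in RPC-labelled tumours 1 to 5, against 5.0, 13.6 and 21.6 CPM in RP-labelled tumours, and just missed a call (log2 fold change -2.30 ± 0.77 SE; edgeR adjusted p = 0.0551). As for Kcnj15, RPC-labelled tumour 4 was the highest of its group and tumour 2 the lowest.

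Of 9 tested tandem-pore genes, 3 were lower and none was higher, against 8.61% lower and 9.64% higher of all genes tested. With 9 genes, the lack of a higher call does not set the subfamily apart. Kcnk5, an alkaline-activated background channel of epithelia, was at 1.83, 1.74, 4.25, 8.97 and 3.77 CPM in RPC-labelled tumours 1 to 5, against 8.11, 9.99 and 15.7 CPM as the lowest, median and highest of RP-labelled tumours. RPC-labelled tumour 4 again was the only one inside the RP-labelled range (log2 fold change -1.42 ± 0.38 SE; edgeR adjusted p = 0.0264). The call was lost without RPC-labelled tumour 1, 2, 3 or 5 or RP-labelled tumour 4 or 6, at adjusted p values of 0.0506 to 0.0613, with log2 fold changes of -1.43 to -1.23. In RPC-labelled tumours the order of Tg (4, 3, 1, 5, 2) was also that of Kcnj16 and Kcnj15, while Kcnk5 followed the order 4, 3, 5, 1, 2; this describes 5 tumours. RP-labelled tumours did not follow such an order: tumour 3, with the lowest Tg, had 30.4 CPM of Kcnj15, and tumour 1, with the highest Tg, had 24.3 CPM, whereas Kcnj16 was at 5.0 CPM in tumour 3 and 8.86 CPM in tumour 1. With the follicular score in the model, the log2 fold change was -0.51 for Kcnj15 and -0.31 for Kcnk5. Whether follicular cell content took part in these results was not tested beyond that fit.

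**Figure D5:**
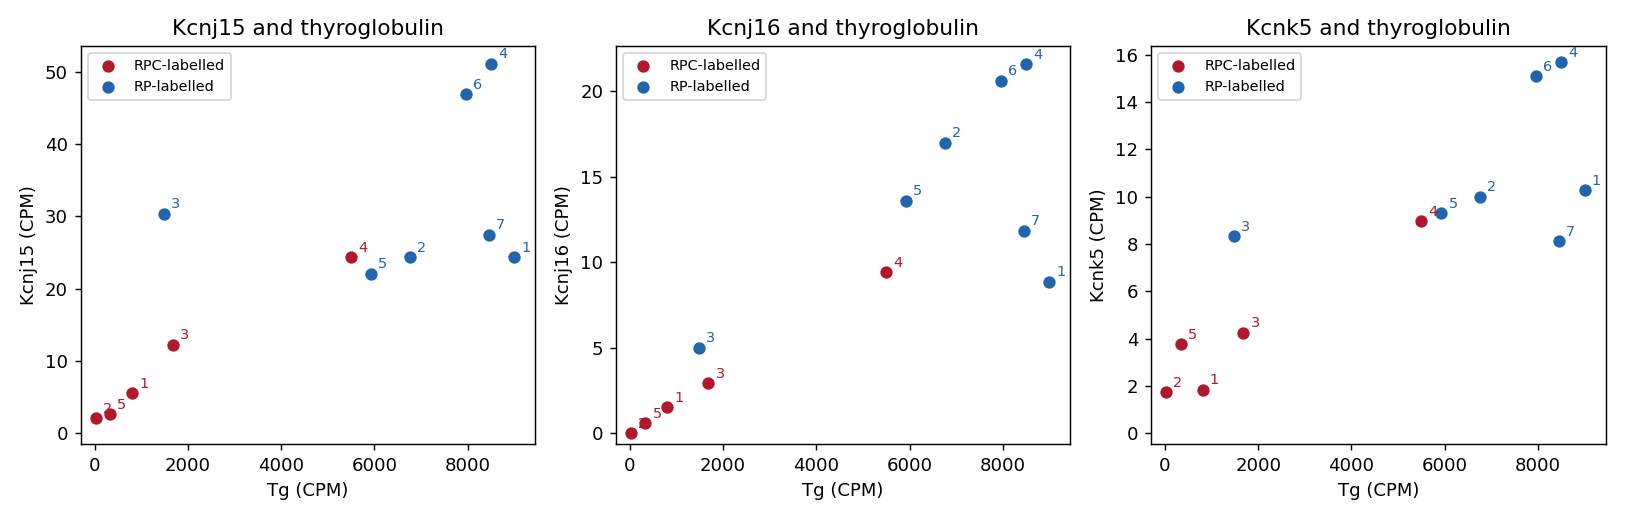
CPM of Kcnj15, Kcnj16 and Kcnk5 against CPM of Tg in each tumour, RPC-labelled in red and RP-labelled in blue, with replicate numbers. RPC-labelled tumour 4, with a Tg of 5488 CPM, is the highest of its group in all 3 panels, and RP-labelled tumour 3, with a Tg of 1482 CPM, lies inside the RPC-labelled Tg range.

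Kcnk12 and Kcnk13 encode the related channels THIK-2 and THIK-1. Kcnk12 was at 3.34, 2.75, 4.20, 3.64 and 2.82 CPM in RPC-labelled tumours 1 to 5, against 4.49, 5.83 and 8.56 CPM as the lowest, median and highest of RP-labelled tumours, and the ranges did not overlap (log2 fold change -0.89 ± 0.20 SE; edgeR adjusted p = 0.0157). Kcnk13, the main background channel of microglia, was at 0.693, 0.733, 0.660, 0.355 and 1.52 CPM in RPC-labelled tumours 1 to 5, against 1.45, 2.14 and 2.91 CPM in RP-labelled tumours. RPC-labelled tumour 5 alone reached the RP-labelled range (log2 fold change -1.43 ± 0.33 SE; edgeR adjusted p = 0.0156). Macrophage and lymphocyte markers summed to 30.1 to 62.3 CPM in RPC-labelled and 39.6 to 173 CPM in RP-labelled tumours, with 1 of 5 tested markers lower and 1 marker at 0 in every RPC-labelled tumour, and their part in the Kcnk13 result was not tested. Kcnk1, the second most abundant Kcn gene per length, was at 118 to 173 CPM in RPC-labelled and 140.3 to 248 CPM in RP-labelled tumours and was not called (log2 fold change -0.44 ± 0.15 SE; edgeR adjusted p = 0.0596).

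The single-pass auxiliary Kcne subunits held the largest decrease among the called Kcn genes. Kcne4, which inhibits several voltage-gated channels, was at 3.84, 2.75, 2.17, 3.55 and 1.23 CPM in RPC-labelled tumours 1 to 5, against 4.50, 13.8 and 96.8 CPM as the lowest, median and highest of RP-labelled tumours. Every RPC-labelled tumour was below every RP-labelled one, and the RP-labelled values were widely spread (log2 fold change -3.35 ± 0.74 SE; edgeR adjusted p = 0.0140). The fold depended on RP-labelled tumour 3, without which it was -2.58 with an adjusted p of 0.00845. That tumour also had the highest sums of macrophage and lymphocyte markers, at 173 CPM, and of endothelial markers, at 144 CPM, and their part in its Kcne4 level was not tested. The window of Kcne4, on the plus strand of GRCm38.p6, carried the core letters 50 bases before the start, shown in capitals.
Kcne4 chr1:78816661-78816910: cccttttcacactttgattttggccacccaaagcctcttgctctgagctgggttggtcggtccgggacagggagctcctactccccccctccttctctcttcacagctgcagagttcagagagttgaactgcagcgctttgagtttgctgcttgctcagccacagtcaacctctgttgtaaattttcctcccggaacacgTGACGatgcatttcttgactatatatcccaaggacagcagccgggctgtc
It had 53.2% G and C, near the median of all windows.

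Kcne2, the partner of Kcnq1 in follicular cells, was at 0.819, 0.641, 0.660, 1.07 and 0.579 CPM in RPC-labelled tumours 1 to 5, against 1.14, 1.74 and 5.52 CPM as the lowest, median and highest of RP-labelled tumours. The ranges lay just apart (log2 fold change -1.63 ± 0.43 SE; edgeR adjusted p = 0.0252), resting on 54 counts in RPC-labelled and 334 counts in RP-labelled tumours. The call was lost without RPC-labelled tumour 1, 2, 3 or 5, at adjusted p values of 0.0549 to 0.0653. The highest RP-labelled tumour, number 7, also had the highest sum of airway and squamous epithelial markers, at 2221 CPM, and the part of such cells was not tested; without it the log2 fold change was -1.25.

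The remaining tested genes were led in their subfamilies by Kcnt1, Kcnu1, Kcnrg, Kcns3 and Kcng4, none of which was called. Kcnt1, a sodium-activated channel, was at 44.5 to 96.2 CPM in RPC-labelled and 39.6 to 132 CPM in RP-labelled tumours (edgeR adjusted p = 0.863). Kcnu1, a relative of the BK channel known from sperm, varied little, at 4.10 to 5.13 CPM in RPC-labelled and 4.30 to 4.86 CPM in RP-labelled tumours (edgeR adjusted p = 0.854). Kcnrg, a regulator of Kv1 channels rather than a pore, was called higher only without RP-labelled tumour 1, at a log2 fold change of 0.77 and an adjusted p of 0.0294, against 0.57 and 0.143 with all tumours. Kcns3, a silent subunit that modifies Kcnb channels, had an adjusted p of 0.376, and Kcng4, another silent subunit, 0.398 with a log2 fold change of -0.98 that was -1.81 without RPC-labelled tumour 5. Of the 32 genes too low to test, 30 averaged under 1 CPM in both groups.

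A list of 35 potassium channel partners outside the Kcn symbols was examined in the same fit: auxiliary subunits, clustering proteins, related cation channels, the pumps and cotransporters that set the potassium gradient, and Rest, a repressor of neuronal genes. Of 30 tested, 3 were higher and 2, Abcc8 and Abcc9, were lower, 16.7% in all, near the 18.3% of all genes called. Adam22, a receptor of the Kv1-clustering protein LGI1, and Slc12a2, a sodium, potassium and chloride cotransporter, were higher by log2 fold changes of 0.34 ± 0.11 SE and 0.44 ± 0.14 SE (edgeR adjusted p = 0.0432 and 0.0441), and each call was lost in 10 of the 12 fits that left out 1 tumour and without a filter on low counts, at adjusted p values of 0.0615 and 0.0532. All 10 pumps and cotransporters were tested, with 1 higher (10%, near the 9.64% of all genes) and 0 lower by edgeR.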

How the data were processed

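Messenger RNA had been selected with oligo(dT) beads and sequenced as NEBNext Ultra libraries, per the labels' protocols, a kit that does not mark strand. The submitters' processing notes name bcl2fastq 1.8.2, TopHat2 2.0.12, HTSeq 0.6.1 and the build mm9. The sources used here do not name the counter's annotation or strand mode, so a gene's reads and those of its antisense partner are not separable. The authors deposited raw counts per gene, 1 table for each of the 12 tumours, with 5 summary rows that were left out; reads outside genes were 13.1% to 17.6% and reads aligned to more than 1 place 10.9% to 18.5% of each table.

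The counts were fitted with edgeR 4.0.16 (R 4.3.3, limma 3.58.1) using filterByExpr with a minimum count of 10, TMM scaling and a robust quasi-likelihood F test adjusted by Benjamini-Hochberg over 14989 genes; all tumours entered with no covariate. CPM uses TMM-scaled library sizes. The standard error is the log2 fold change divided by the square root of F. Alternatives were DESeq2 1.42.0, 2 other scalings, 2 other filters, a replicate block, marker scores as covariates and leaving out each tumour; leaving out 2 tumours together was chosen after seeing the data. The tests were tried on counts simulated with edgeR's own dispersion estimates, on which DESeq2 made more false calls than edgeR. Such counts may favour edgeR, so they do not rank the tests on these data. The main test was set as edgeR, and DESeq2 calls are given as an alternative only. Every pair of libraries within a group differed by more than sampling noise. Exon lengths came from a GRCm38 annotation, so levels per kb are approximate for counts made on mm9. Promoter windows are RefSeq's.

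The members, lists and rules were chosen with earlier results of these data known. Genes named were the called members, the most counted tested member of each subfamily, Kcnq1, Kcne2, Kcnk3, called partners, Calca and Tg. Some genes that meet this rule are not reported here, though totals count them. The other genes given by value, the ratios, the promoters printed and the motif were chosen after values were seen.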

Additional observations from a re-analysis of the deposited data

Results flagged for a closer look

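Among 70 groups of tumours searched, 7 held a value set far apart from the rest of its group. Chance would mark about 1 group in 20 if values were normal and independent. CPM values can be skewed and the groups share the same tumours, so the chance rate here is not known. In RP-labelled tumours, Kcna4 was at 1.10 CPM in tumour 5, against 0.190 CPM in the next highest. Tumour 5 was also the deepest library, at 57.3 M counts. RP-labelled tumour 3 stood apart in 3 genes: Kcne4 at 96.8 CPM against 41.5 CPM in the next highest, Kcna2 at 37.9 CPM against 14.4 CPM, and Tg at 1482 CPM against 5926 CPM in the next lowest. Kcne2 was at 5.52 CPM in RP-labelled tumour 7, against 3.02 CPM in the next highest, and Kcnrg at 4.15 CPM in RP-labelled tumour 1, against 2.29 CPM. In RPC-labelled tumours, Abcc9 was at 15.9 CPM in tumour 5, against 8.61 CPM in the next highest.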

How the results depend on the processing

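The called Kcn genes numbered 7 higher and 10 lower in RPC-labelled tumours, and the called partners 3 higher and 2 lower. Kcn genes numbered 12 higher and 15 lower with DESeq2 (24% of all genes called), 12 and 11 with scaling by total counts (23%), and 3 and 8 with a minimum count of 50 (18.9%), at which 10 of the 16 called genes described here were tested and all 10 kept their call; partners numbered 5 higher and 1 lower by total counts. The follicular score gave 0 Kcn genes higher, 0 lower, and 0 and 0 partners, with 3 partners higher and 1 lower at an unadjusted p under 0.05; the adipocyte score gave 0 and 1 (0.741% of all genes), and 0 and 0 partners, with 1 and 5 at an unadjusted p under 0.05. Leaving out RPC-labelled tumour 5 and RP-labelled tumour 6 gave 1 and 4, and partners 0 and 1, with 4 partners higher at an unadjusted p under 0.05; leaving out RPC-labelled tumour 4 and RP-labelled tumour 3 gave 5 partners lower. Leaving out each tumour in turn gave 3 to 10 Kcn genes higher, 6 to 14 lower, 1 to 2 partners higher and 0 to 4 lower. Where calls were lost, the cause was not tested.

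Directions turned for some log2 fold changes, among the called genes reported here only for Abcc8. By total counts Kcnab2 was at 0.15; with the follicular score Kcna2 was at -0.094, Kcnk3 at 0.17, Kcnq1ot1 at -0.018, Kcnt1 at -0.58, Kcnq1 at -0.099, Abcc8 at 0.011, Calca at 0.19 and Tg at 1.07; with the adipocyte score Kcnq1ot1 was at -0.13, Kcnt1 at -0.55 and Kcnq1 at -0.081. Tg is itself one of the markers averaged into the follicular score, so its value in that fit is not a separate result. Kcnt1 was at -0.073 with tumours 1 to 5 alone, and Kcnq1ot1 at -0.061 without RPC-labelled tumour 5 and RP-labelled tumour 6. Kcnab2 was at 0.027 without RPC-labelled tumour 4 and RP-labelled tumour 3. Over the fits that left out 1 tumour, Kcnab2 ranged from -0.13 to 0.047, Kcnq1 from -0.088 to 0.18, Kcnq1ot1 from -0.040 to 0.20, Kcnt1 from -0.093 to 0.36 and Kcnu1 from -0.0100 to 0.090.

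The labels state no pairing by replicate number. Same-numbered tumours correlated at 0.159, -0.0560, -0.0455, 0.121 and -0.0431 in their deviations, and 1 of 5 matched its own number best. With tumours 1 to 5 of each group and a replicate block, 2 Kcn genes were called higher and 4 lower, with 1 and 0 partners and 3.12% of all genes; without the block the same tumours gave 3 and 6, with 1 and 0 partners and 5.85% of all genes. At an unadjusted p under 0.05, 4 partners were lower with the block and 3 without it. The numbers were treated as labels in the main fit, and correlations of this kind cannot exclude a shared litter or batch.

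At a floor of 3 counts, up to 0.312 CPM, differences among genes such as Kcna4 and Kcne2 rest on few counts.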

Other observations

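Several Kcn genes too low to test stood high in 1 or 2 tumours. Kcna7, a Kv1 pore gene expressed in skeletal muscle, was at 4.34 CPM in RPC-labelled tumour 5 and 5.77 CPM in RP-labelled tumour 6, and at most 1.12 CPM in any other tumour. The same 2 tumours had skeletal muscle marker sums of 3724 and 3621 CPM, and the part of muscle in the Kcna7 level was not tested. RPC-labelled tumour 5 was also the highest for Kcnk10, a tandem-pore channel, at 4.49 CPM against at most 1.82 CPM elsewhere, for Kcns2, a silent subunit, at 2.46 CPM, and for Kcnh6, a relative of hERG, at 1.88 CPM. Kcng2, another silent subunit, was highest in RPC-labelled tumour 4, at 2.40 CPM. These genes were chosen after their values were seen. RPC-labelled tumour 5 held 26 of the 36 Kcnh6 counts and 34 of the 58 Kcns2 counts in RPC-labelled tumours. The p-values of these 2 genes therefore rest mostly on the tumour for which they were chosen. With no filter on low counts, edgeR called Kcnh6 higher (log2 fold change 3.26; adjusted p = 0.0390) and did not call Kcns2 (2.90; adjusted p = 0.0524), Kcna7, Kcnk10 or Kcng2, and DESeq2 called Kcnh6 and Kcns2 higher (adjusted p = 0.0203 and 0.0243).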
